A study of Sus scrofa domesticus with 4 samples.

Results

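The genes described here are 10 macrophage genes, namely the C1q chain genes C1QA, C1QB and C1QC, the signalling adaptors FCER1G and TYROBP, the cytosolic marker AIF1, the scavenger receptor CD163, the lipopolysaccharide co-receptor CD14, the lysosomal glycoprotein CD68 and CSF1R, the receptor of macrophage colony-stimulating factor. Their probes were found by matching the RefSeq mRNA accession that the array gives for each non-control probe to pig gene symbols. Of the 10 genes, 8 had a matched probe, with 14 probes in all, against 2971 named genes on the array. CD68 and CSF1R had none and were not analysed here. Of the 14 probes, 11 were bright enough to test, at least 1 for each of the 8 genes. The set was chosen with its ratios of orexin B over untreated on these same arrays known, so those ratios are described here and carry no test of their own.

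Macrophages are resident phagocytes of the uterine wall, and their number and state change through pregnancy. They carry receptors for bacterial products, antibodies and spent haemoglobin, and they are the main source of C1q, the recognition unit of the classical complement pathway. C1q is assembled from A, B and C chains, and it binds antibody complexes and dying cells. Orexin B is a neuropeptide that acts through the orexin receptors.

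The RNA came from slices of myometrium, the muscle layer of the uterus, of 4 mature gilts (Large White x Polish Landrace) aged 7 to 8 months and at gestation days 15 to 16. The slices, 3 mm thick and about 100 mg, were cut from the middle of the uterine horns. After 2 h of preincubation they spent 24 h in culture with 10 nM orexin B or without treatment, and both kinds of RNA were hybridised together on a 2-colour Agilent pig array. There were 4 such arrays, numbered 1 to 4, with orexin B RNA in Cy5 on arrays 1 and 3 and in Cy3 on arrays 2 and 4. RNA of integrity number 8 to 10 was used, with 825 ng of labelled cRNA of each dye. The labels name 4 experiments with duplicate cultures, and do not say whether both RNAs of an array came from the same gilt. Explants hold every cell type of the slice and no cell was sorted, so more macrophages and more RNA per macrophage cannot be told apart.

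Of 43603 probes, 19876 were tested. A probe was tested when it was well above background, as the scanner software marks it, on all 4 arrays in at least 1 of the channels. The share of probes above background ran from 48.7% to 54.2% in the orexin B channel and from 37.6% to 58.2% in the untreated channel. Every ratio below is the log2 of orexin B over untreated, and every level is the log2 intensity of a channel after normalization. The smooth muscle genes that define the tissue were bright, with all 10 that had a matched probe passing the filter. In limma's moderated fit over all 19876 probes, 0 passed an adjusted p of 0.05 (0% of those tested), and the smallest adjusted p was 0.596. At an unadjusted p under 0.05, 4.31% of the probes were higher and 3.41% lower with orexin B. Array 1 lay on a slide of its own and the other arrays together on a second slide. For the macrophage genes array 2 stood low and array 3 high, as given below, and with 4 arrays precision is limited.

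All 8 measured macrophage genes had a mean ratio above 0, beside 54.1% of all tested probes and 53.8% of the 1959 tested genes that have a name. The gene means ran from 0.08 for CD14 to 0.98 for C1QB, and their median was 0.61, beside a median of 0.02 over all tested probes. AIF1, C1QB and FCER1G were above 0 on all 4 arrays, which is 3 of 8 genes, beside 8.92% of all tested probes and 8.37% of the named genes. With median centring in place of loess that was CD163 alone, and without array 2 it was 7 genes. None of the 8 genes passed an adjusted p of 0.05, and 7 had an unadjusted p under 0.05, beside the 4.31% above. Since the genes were chosen on this comparison, nothing is read from these counts. C1QC was tested through its orexin B channel alone, as it was well above background on 3 of 4 arrays in the untreated channel.

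**Figure D1:**
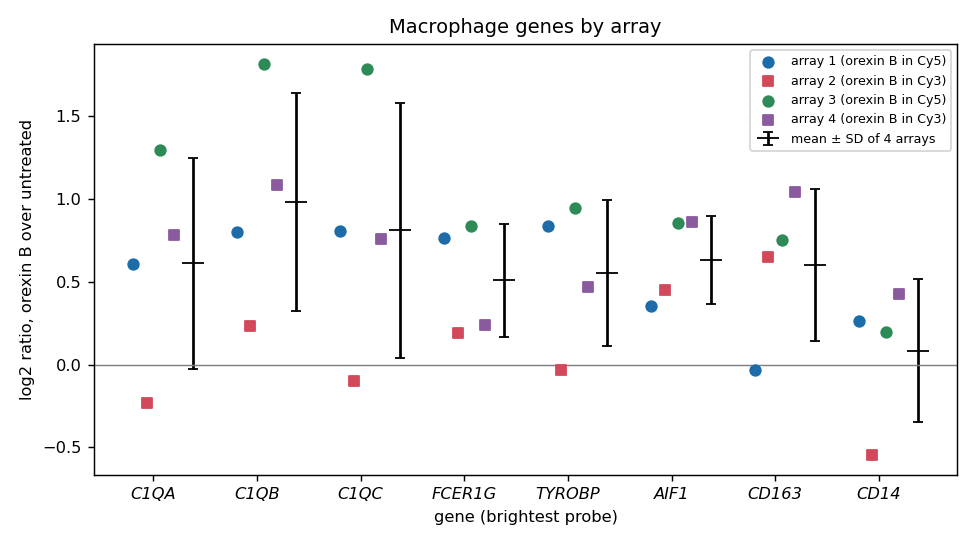
Log2 ratio of orexin B over untreated (vertical axis) for the brightest probe of each of 8 macrophage genes (horizontal axis), with a point for each of the 4 arrays, circles for orexin B in Cy5 and squares for orexin B in Cy3; bars are the mean ± SD of the 4 arrays. The C1q chains spread most, with array 3 highest and array 2 lowest, and CD14 sits lowest, with a mean of 0.08.

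Among the C1q chains, C1QB and C1QC had the highest means of the set over all 4 arrays. Without array 3 the mean was 0.70 for C1QB, 0.49 for C1QC and 0.38 for C1QA, beside 0.56 for AIF1 and 0.55 for CD163, so the place of C1QC rested on that array. C1QB, the B chain, had orexin B levels of 10.72, 9.92, 10.18 and 11.89 on arrays 1 to 4, against untreated levels of 9.92, 9.69, 8.37 and 10.80. Its ratios were 0.80, 0.23, 1.82 and 1.08, so orexin B RNA gave the stronger signal on every array, by 1.17-fold on array 2 and by 3.53-fold on array 3. The mean was 0.98 ± 0.66 (SD, n = 4), a 1.98-fold difference. C1QC, the C chain, had ratios of 0.81, -0.10, 1.78 and 0.76, with a mean of 0.81 ± 0.77 (SD, n = 4), and of 1.24 with Agilent's processed signals. Its orexin B levels were 9.79, 8.92, 9.64 and 10.46, against 8.98, 9.02, 7.86 and 9.70 in untreated slices. Array 2 was the exception for this chain, with a level slightly lower with orexin B. C1QA, the A chain, had ratios of 0.61, -0.23, 1.29 and 0.78 and a mean of 0.61 ± 0.64 (SD, n = 4), and its SD exceeded its mean. Its orexin B levels were 10.28, 8.92, 9.95 and 11.30, against 9.67, 9.16, 8.66 and 10.52 in untreated slices. The channels of all 3 chains overlapped across arrays, since untreated slices on array 4 had higher levels than orexin B slices on arrays 2 and 3.

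Array 3 was highest and array 2 lowest for each chain, while array 4 lay above array 1 for C1QA and C1QB and just below it for C1QC. Within an array the highest and the lowest chain differed by 0.20 on array 1, 0.47 on array 2, 0.52 on array 3 and 0.33 on array 4, while the median of the chains lay between -0.10 and 1.78 across arrays. In the pig gene table C1QA, C1QC and C1QB lie next to each other in that order, with no other protein-coding gene between them. Their outer neighbours EPHA8 and EPHB2 had no tested probe. C1q works together with the proteases C1R and C1S, and the inhibitor SERPING1 restrains them. C1S had a mean ratio of 0.03 ± 0.12 (moderated standard error, n = 4) and SERPING1 of -0.05 ± 0.13, so both of these partners lay near 0. C1R was not analysed here.

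**Figure D2:**
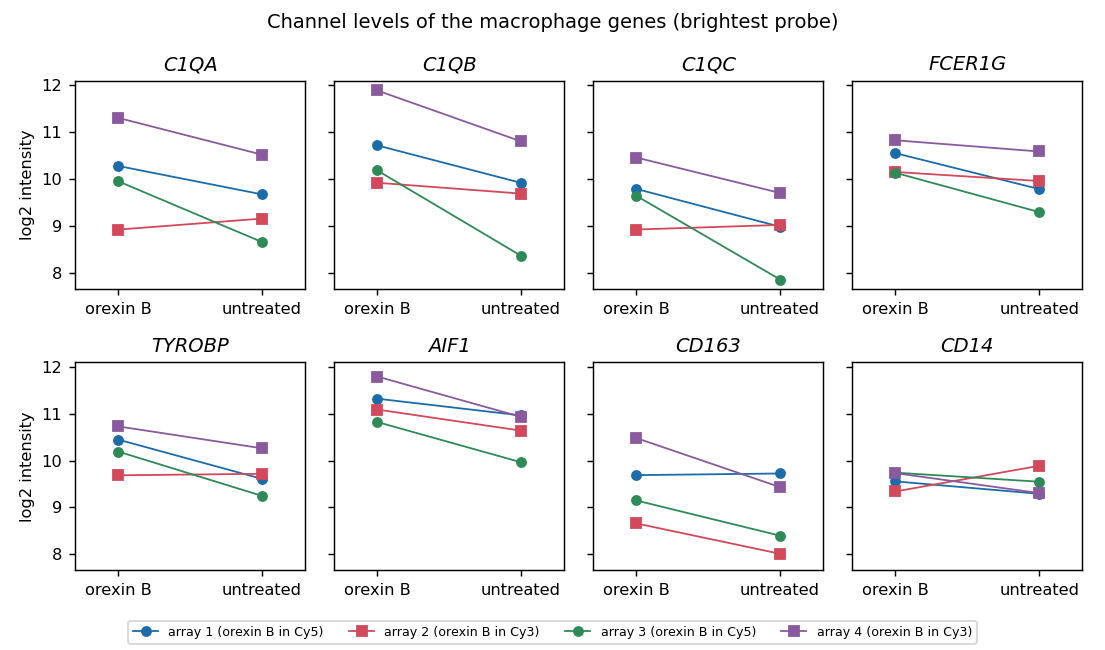
Log2 intensity (vertical axis) of the orexin B channel and the untreated channel of each array, joined by a line, for the brightest probe of 8 macrophage genes. Array 4 has the highest orexin B level for 7 of the 8 genes, and array 3 the lowest untreated level for 6 of them.

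FCER1G and TYROBP are short membrane chains that pass on the signal of Fc receptors and of TREM receptors through paired tyrosines. FCER1G had orexin B levels of 10.55, 10.15, 10.13 and 10.83, against 9.79, 9.96, 9.30 and 10.59 in untreated slices. Its ratios of 0.77, 0.19, 0.84 and 0.24 formed a higher pair on arrays 1 and 3, with orexin B in Cy5, and a lower pair on arrays 2 and 4, and the mean was 0.51 ± 0.34 (SD, n = 4). TYROBP, also called DAP12, had orexin B levels of 10.45, 9.69, 10.19 and 10.73, against 9.61, 9.72, 9.25 and 10.26 in untreated slices. Its ratios were 0.84, -0.03, 0.94 and 0.47, with a mean of 0.55 ± 0.44 (SD, n = 4) and again the lowest value on array 2. A second TYROBP probe, which was dimmer, gave 0.28, -0.05, 1.02 and 0.33. The probes differed by 0.55 on array 1 and by at most 0.14 on the others, and had the same sign on all 4 arrays. HCST, the adaptor gene next to TYROBP in the pig gene table, had a mean ratio of -0.17 ± 0.14 (moderated standard error, n = 4). APOA2, the apolipoprotein gene next to FCER1G, had 0.25 ± 0.11.

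AIF1, a calcium-binding protein that bundles actin in macrophages, had the steadiest ratios of the set by brightest probe. Orexin B levels were 11.32, 11.09, 10.82 and 11.79, against 10.96, 10.64, 9.96 and 10.93 in untreated slices. The ratios were 0.36, 0.45, 0.86 and 0.86 and the mean was 0.63 ± 0.27 (SD, n = 4), or 1.55-fold. Unlike the C1q chains, this probe was lowest on array 1 and about equal on arrays 3 and 4. The second AIF1 probe gave 0.53, 0.04, 0.90 and 0.81, so that on array 2 it was near 0 while the brighter one was not. With an SD of 0.39 the second probe was less steady, and it was lowest on array 2, as the C1q chains were. The difference between the probes there, 0.41, was the largest for this gene.

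CD163, the receptor that clears haptoglobin-bound haemoglobin, followed another order of arrays. Orexin B levels were 9.69, 8.66, 9.15 and 10.48, against 9.72, 8.01, 8.40 and 9.43 in untreated slices. The ratios were -0.03, 0.65, 0.75 and 1.05, with a mean of 0.60 ± 0.46 (SD, n = 4). Array 1 was near 0 for CD163, whereas array 2 was at or below 0.23 for every C1q chain. A second tested probe gave 0.05, 0.16, 0.36 and 0.78, with a mean of 0.34 ± 0.32 (SD, n = 4). It passed the filter through its orexin B channel alone, being well above background on 3 of 4 arrays in the untreated channel, so nothing is read from its likeness to the first. The other two CD163 probes were well above background on 0 and 1 of 4 arrays in the orexin B channel and on 0 in the untreated channel and were not tested.

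CD14 stood apart from the rest. Its orexin B levels were 9.56, 9.34, 9.74 and 9.73, against 9.29, 9.89, 9.55 and 9.31 in untreated slices. The ratios were 0.26, -0.55, 0.19 and 0.43, with a mean of 0.08 ± 0.43 (SD, n = 4), well within the spread of the arrays. The mean was 0.024, 0.29, 0.048 and -0.029 without arrays 1, 2, 3 and 4. The dimmer CD14 probe was well above background on 3 arrays in the orexin B channel and on 1 in the untreated channel and was not tested.

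**Figure D3:**
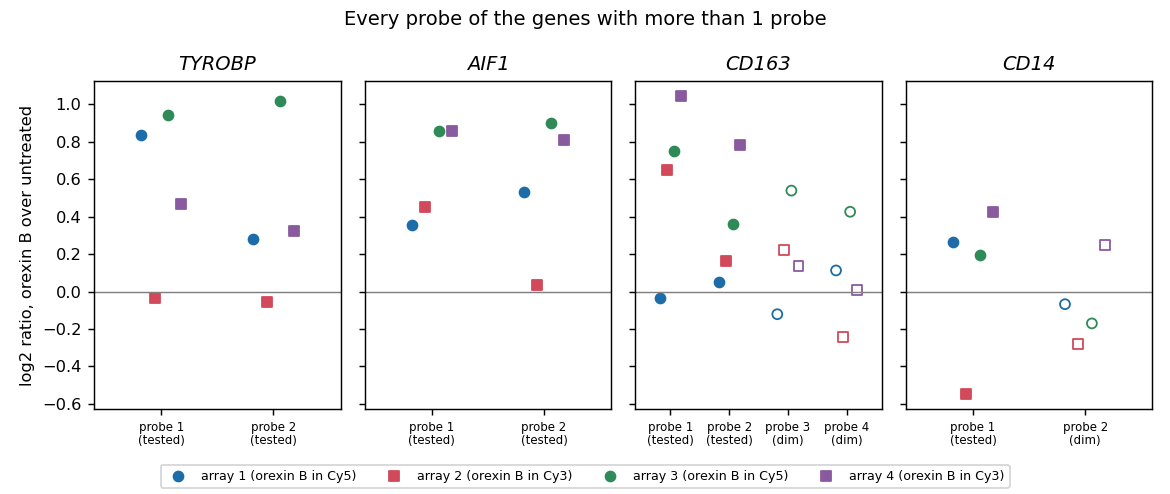
Log2 ratio of orexin B over untreated (vertical axis) on each of the 4 arrays for every probe of the genes with more than 1 probe, brightest probe first; filled points are tested probes, open points are probes too dim to test. CD163 probe 2, tested through its orexin B channel alone, has 0.78 on array 4, and probe 1 has 1.05.

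The macrophage genes differed between arrays. The median ratio over the 8 genes was 0.69, 0.08, 0.90 and 0.77 on arrays 1 to 4, an SD of 0.36 between arrays. The median of all tested probes lay between 0.004 and 0.02, but loess sets it near 0 on each array, so nothing is read from that. All tested named genes had array medians of 0.05, -0.09, 0.03 and 0.05, also lowest on array 2. On array 2 only 4 of 8 genes were above 0, against 7 on array 1 and 8 on arrays 3 and 4. By brightest probe, array 2 held the lowest ratio for 6 genes, array 1 for CD163 and AIF1. Without array 2, 7 of 8 genes were above 0 on every remaining array, and CD163 was the exception. Without array 3, which was highest for 5 genes, the median over the genes was 0.46.

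Set among all tested probes of the same array, the C1q chains lay between percentiles 97.5 and 99.1 on array 1, 26.8 and 67.1 on array 2, 99.8 and 99.9 on array 3, and 96.5 and 98.8 on array 4. AIF1 was at percentiles 90.1, 80.2, 99.3 and 97.7, and CD163 at 40.5, 88, 98.8 and 98.7. FCER1G was at percentiles 98.9, 64.2, 99.2 and 78.4, and TYROBP at 99.2, 45, 99.4 and 90.5. CD14 ran from percentile 8.8 on array 2 to 89 on array 4. The chains thus sat in the upper tail of 3 arrays and in the middle of array 2.

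**Figure D4:**
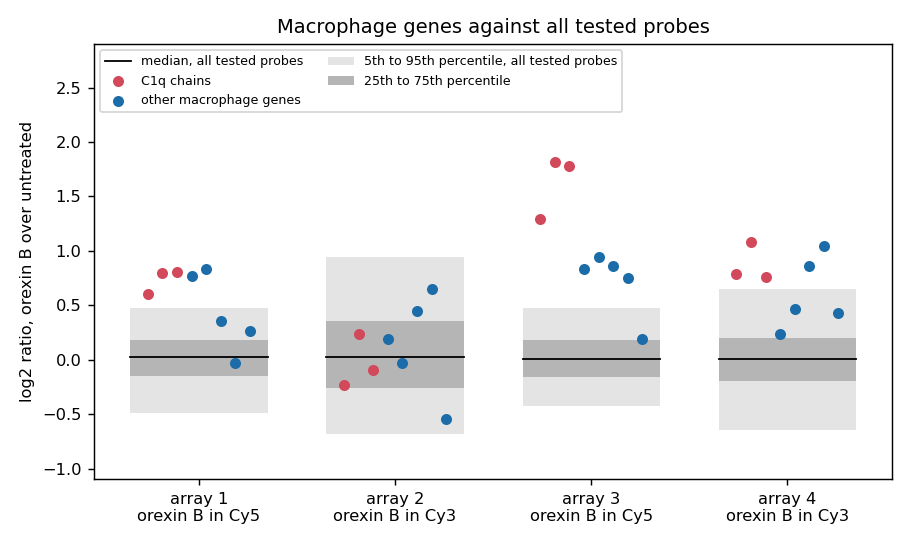
Log2 ratio of orexin B over untreated (vertical axis) for 8 macrophage genes on each array, over bars of the 5th to 95th and the 25th to 75th percentile of all 19876 tested probes. On array 3 the C1q chains lie between 1.29 and 1.82, above a 95th percentile of 0.47, and on array 2 every gene lies below the 95th percentile of 0.94.

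The untreated levels of these genes differed between arrays, where slice, dye and array cannot be told apart. The untreated level of C1QB ranged over 2.44 log2 units between arrays, that of C1QA over 1.86 and that of CD163 over 1.71, against 0.60 for CD14. For all 8 genes this range exceeded the mean ratio. The same count over all tested probes was not made, so it is not read as particular to these genes. No tested probe of the set had all its orexin B levels above all its untreated levels, beside 1.16% of all tested probes. Array 3 had the lowest untreated level for 6 of the 8 genes and array 4 the highest for 5. A ratio contains the untreated level, so the high ratios on array 3 and its low untreated levels are not separate observations.

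The dye of the orexin B RNA is a measure that the choice of genes did not use. With dye as a second term in the limma fit, the mean ratios stayed as they were, since the orientations are balanced. The dye term, the part of a ratio that belongs to Cy5 over Cy3, was above 0 for 6 of the 8 genes and had a median of 0.31, beside -0.01 and an SD of 0.23 over all tested probes. None of the 8 passed an adjusted p of 0.05, beside 0% of all tested probes, and the smallest adjusted p among them was 0.353. With median centring in place of loess, 9217 probes passed for dye. FCER1G and TYROBP had an unadjusted p under 0.05 for dye, 2 of 8 genes, beside 12.5% of all probes. FCER1G had a dye term of 0.29 ± 0.11 (moderated standard error, n = 4) and TYROBP of 0.34 ± 0.13. CD163 and AIF1 had dye terms of -0.24 ± 0.16 and -0.02 ± 0.14. The median over the genes was 0.85 where orexin B RNA carried Cy5 and 0.30 where it carried Cy3, and the second value includes array 2. On the slide that held arrays 2, 3 and 4 the median was 0.67, and on array 1, alone on its slide, it was 0.69.

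Other genes of macrophages were described from lists chosen with earlier results of these arrays known, each gene by its brightest tested probe, and none of them passed an adjusted p of 0.05. Listed genes that were not tested had no matched probe or were too dim. Among the genes named below, TREM2, SYK, S100A12, PPBP, CD3G and NKG7 were tested through the orexin B channel alone, so a ratio above 0 was favoured for them. In the untreated channel they were well above background on 2 (SYK and CD3G) or 3 of 4 arrays. Some lists hold further genes tested through the orexin B channel alone, and no gene in the lists was tested through the untreated channel alone. Counts above 0 in the lists stand beside 53.8% of all tested named genes. Among Fc receptors and adaptor signalling genes, 7 of 20 were tested and 5 had a mean above 0, with a median of 0.11. The low-affinity IgG receptor FCGR3A, which signals through FCER1G, had ratios of 1.03, 0.13, 1.21 and 0.42 and a mean of 0.70 ± 0.20 (moderated standard error, n = 4). By brightest probe, array 3 was highest for FCGR3A, then arrays 1, 4 and 2, which is also the order of FCER1G and of TYROBP. The second TYROBP probe had another order, with 0.33 on array 4 and 0.28 on array 1. TREM2, a lipid receptor that pairs with TYROBP, had 0.11 ± 0.11, the inhibitory receptor FCGR2B had 0.13 ± 0.18, and the kinase SYK downstream of both adaptors had 0.15 ± 0.14. FCGRT, the neonatal Fc receptor, had -0.01 ± 0.15, and 1 of its 3 tested probes had that sign.

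Of the lipopolysaccharide receptor genes around CD14, 4 of 8 were tested, 3 of them above 0, with a median of 0.02. TLR4, the signalling receptor, had 0.03 ± 0.13 (moderated standard error, n = 4), and its co-receptor LY96 had 0.05 ± 0.21, with 2 of its 4 tested probes of that sign. TLR2 had -0.05 ± 0.14 and the kinase IRAK4 0.01 ± 0.16. MYD88 was well above background on 2 of 4 arrays in each channel and was not tested. The means of these 4 partners and of CD14 all lay between -0.05 and 0.08.

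Scavenger receptor and haem genes divided. Of 15 listed, 7 were tested and 3 had a mean above 0, with a median of -0.03. VSIG4, a complement receptor of resident macrophages, had ratios of 0.67, -0.16, 1.14 and 0.94 and a mean of 0.65 ± 0.21 (moderated standard error, n = 4). MRC1, the mannose receptor, had values on 3 arrays, 0.18, 0.64 and 0.54 on arrays 2, 3 and 4, and its fit of 0.45 ± 0.16 dropped array 1, where its spot was marked. HMOX1, the haem-degrading enzyme, had -0.03 ± 0.15, and the ferritin chains FTH1 and FTL had 0.31 ± 0.21 and -0.19 ± 0.15. VSIG4 thus shared the low array 2 of the C1q chains, and FOLR2 was also lowest there. HMOX1 was lowest on array 1 and then array 2, as CD163 was, and differed from it in the order of arrays 3 (0.26) and 4 (0.15). FTH1 and FTL had other orders of arrays than CD163.

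Among phagocyte oxidase, integrin and pan-leukocyte genes, 5 of 17 were tested, 4 of them above 0, with a median of 0.37. GP91-PHOX, the catalytic subunit of the oxidase, had 0.37 ± 0.14 (moderated standard error, n = 4) and was above 0 on all 4 arrays, beside 8.37% of named genes. CYBA, the membrane partner of that subunit, had -0.18 ± 0.12 and was below 0 on all 4 arrays, beside 7.08% of all tested probes. The integrin chain ITGB2 had 0.04 ± 0.13. Among activation and chemoattraction genes, 20 of 26 were tested and 15 were above 0, with a median of 0.26. Of those 20, 2 were tested through the orexin B channel alone. CCR1, a chemokine receptor of monocytes, had 0.61 ± 0.16, MMP12, macrophage elastase, had 0.93 ± 0.39 and ran from -0.45 on array 3 to 2.37 on array 4, and LGALS3, galectin 3, had -0.40 ± 0.28.

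The transcription factor PU.1 gene SPI1 did not reach the scanner's background mark on any of the 4 arrays, with orexin B or without. Of 16 myeloid transcription factor genes 7 were tested, 2 of them above 0, with a median of -0.09. CEBPB had -0.02 ± 0.21 (moderated standard error, n = 4), and MITF had -0.45 ± 0.13, below 0 on all 4 arrays. Lysosome and phagosome genes had a median of 0.04 over 12 tested of 20 listed, 7 of them above 0, and their array medians of 0.02, -0.49, 0.12 and 0.34 were also lowest on array 2. The protease CTSB had 0.23 ± 0.17 and the cholesterol carrier NPC2 had -0.27 ± 0.22. In the CSF1 receptor list, CSF3 and CSF2 were tested of 7, with 0.48 ± 0.20 and 0.30 ± 0.23. Of the 5 tested C1 partners and C1q receptors 4 were above 0, with a median of 0.07, and CALR, an endoplasmic reticulum chaperone that also binds C1q at the cell surface, had 0.74 ± 0.13.

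Of 1929 other named genes with a value on all 4 arrays, those whose ratios lay nearest to the median ratio of the macrophage genes on each array included CCR1, CLDN5, VSIG4, FOLR1, AMBN, ARPC2 and FCGR3A. The root mean square difference over the 4 arrays ran from 0.16 for CCR1 to 0.29 for FCGR3A. For comparison, each macrophage gene differed from the median of the other macrophage genes by 0.23 for TYROBP, 0.31 for FCER1G, 0.32 for C1QA and AIF1, 0.50 for C1QC, 0.53 for C1QB, 0.55 for CD163 and 0.61 for CD14. CCR1 had ratios of 0.51, 0.22, 1.07 and 0.62. CLDN5, a tight junction protein of endothelium, had 0.53, 0.06, 0.78 and 0.45. ARPC2 had a mean of 0.38 by its brightest probe, while its other tested probes had means of -0.10 and -0.06. Several genes outside the set thus lay nearer to its middle than its own members did, and 4 arrays are few to rank likeness by.

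Markers of other cells in the slices had ratios of their own on these arrays. FCER1G and TYROBP are also known from NK cells, and FCER1G from mast cells. The log2 of the summed intensities of the 8 macrophage genes ran from 12.80 to 14.06 in the orexin B channel and from 12.07 to 13.31 in the untreated channel. Smooth muscle genes had a median of -0.49, with 0 of 10 above 0, and array medians of -0.001, -1.04, 0.14 and -1.18. Their summed level, on the same scale, was 18.44 to 19.82 with orexin B, against 19.34 to 20.14 in untreated slices. Fibroblast genes had a median of -0.41 with 0 of 4 above 0, and array medians of -0.02, -0.72, -0.002 and -0.77, and their summed levels were 15.54 to 16.30 with orexin B, against 16.22 to 16.30 in untreated slices. Both lists were lowest on arrays 2 and 4, where orexin B RNA carried Cy3, and their median dye terms were 0.60 for smooth muscle and 0.36 for fibroblast genes, beside 0.31 for the macrophage genes. By contrast, the macrophage genes were low on array 2 and not on array 4. The part of either list in the macrophage ratios was not tested.

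Other blood cells were mostly dim. Of the T and NK cell genes 3 of 20 were tested, with a median of 0.18 and 2 above 0, and summed levels of 10.14 to 10.33 with orexin B, against 9.98 to 10.25 in untreated slices. Those 2, CD3G and NKG7, were tested through the orexin B channel alone, so nothing is read from that median or count. GZMB, well above background on all 4 arrays in both channels, had a mean of -0.04, and 1 of its 2 tested probes had that sign. CD3D, a T cell receptor chain, did not reach the background mark on any array in either channel, nor did the B cell genes CD79A and MS4A1 or the mast cell gene MS4A2. Neutrophil genes had 2 of 11 tested, S100A8 with 0.36 ± 0.60 (moderated standard error, n = 4) and S100A12 with 0.27 ± 0.18. S100A8 had ratios of 0.17, 2.33, -2.01 and 0.96, highest on array 2 and lowest on array 3, where the macrophage genes were low and high. Their summed levels ran from 9.44 to 12.97 with orexin B, against 9.38 to 13.08 in untreated slices. Dendritic cell genes had a median of 0.29 over 3 of 11, blood endothelium genes of 0.31 over 5 of 9 with 4 above 0 and array medians of 0.44, 0.06, 0.04 and 0.21, and epithelial genes of -0.26 over 3 of 10 with array medians of 0.43, -0.26, -1.49 and 1.11. The summed level of the endothelial genes was 13.42 to 14.17 with orexin B, against 13.13 to 13.86 in untreated slices, and that of the dendritic cell genes 12.23 to 13.03 with orexin B, against 11.73 to 12.84 in untreated slices. Platelet and red cell genes had a median of 0.08 over 3 of 8, where the platelet chemokine PPBP had 1.14 ± 0.20 against an untreated level above background on 3 of 4 arrays. Conceptus trophoblast genes had a median of 0.12 over 4 of 8. The mast cell gene KIT had -0.30 ± 0.19. The part of these cells in the macrophage ratios was not tested.

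**Figure D5:**
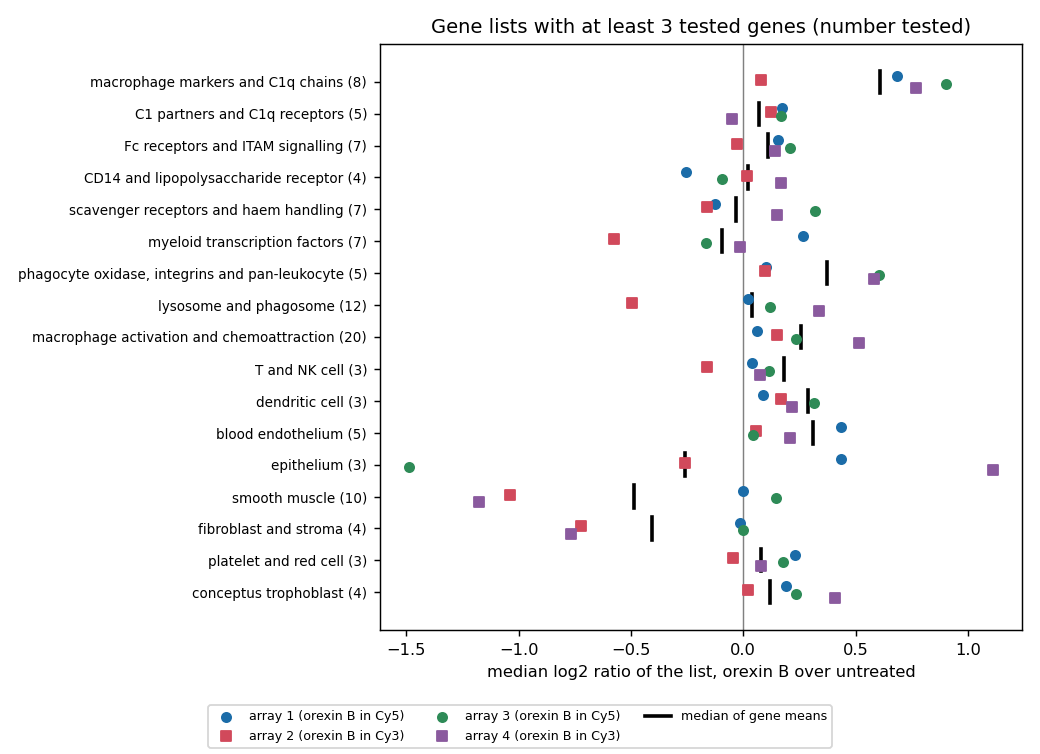
Median log2 ratio of orexin B over untreated (horizontal axis) of each gene list with at least 3 tested genes (vertical axis, with the number tested), with a point for each array and a bar for the median of the gene means. The macrophage and C1q list has a median of 0.61, and the smooth muscle list of -0.49. The smooth muscle list is near 0 on arrays 1 and 3 (orexin B in Cy5). On arrays 2 and 4 (orexin B in Cy3) it is near -1, and dye and slice cannot be told apart.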

How the data were processed

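Per the file headers, the authors' deposited scanner output came from Agilent Feature Extraction 10.7.3.1 and gives each spot's median intensity and background in Cy3 and Cy5, processed intensities, a log10 ratio, and 0 or 1 marks for bright, saturated and outlying spots. The values of the series table, also deposited, are log2 ratios. Compared with the processed signals, 100% of them lay within 0.01 of orexin B over untreated on every array, so its direction was that of each array's dye fields, although the protocol text names only the first orientation. Its column medians were -0.27, -0.08, -0.20 and -0.09. It has 0 unmapped columns, and no genome build is named.

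With limma 3.58.1 in R 4.3.3, median intensities were corrected by normexp (offset 50) and each array by loess, in which control spots had weight 0. Spots marked as outliers were left out and spots of a probe averaged. Tested probes had an unmarked spot on at least 3 arrays. No spot was saturated. Levels are channel values after Aquantile between arrays. An intercept model gave moderated standard errors (3 residual degrees of freedom, prior 4.10), two-sided p-values and Benjamini-Hochberg adjustment over all tested probes. The 4 arrays are the replicates, and p-values measure only the spread between them. Accessions of 6700 probes matched the Sscrofa11.1 gene table, 6599 of them to a symbol, giving 1959 tested genes. Each gene is represented by its brightest tested probe.

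The genes and lists were chosen with earlier results of these data known. Named genes are the 10 set genes, fixed partner genes, up to 4 of the brightest genes of a list and the 8 nearest in ratio; some genes under this rule are not reported here. The fits were tested on simulated data. Alternatives covered background, normalization, source, filter, dye, slide, pairing, probe choice and each array left out. Figures used Python 3.11.15 and matplotlib 3.10.9.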

Additional observations from a re-analysis of the deposited data

Results flagged for a closer look

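In 124 sets of 4 array values, of gene ratios, channel levels and list medians, a search for 1 array lying far from the other arrays found 4, where chance gives about 6.2 (1 in 20). All 4 were genes outside the macrophage set. The integrin chain ITGB1 had a ratio of 0.34 on array 3, against -0.05 to -0.0003 on the others. LY96, the TLR4 co-receptor, had 0.87 on array 4, against -0.28 to -0.16. The leukocyte surface gene CD48 had -0.22 on array 1, against 0.67 to 0.73. The T cell receptor chain CD3G had 0.52 on array 2, against 0.04 to 0.09, and was well above background on 2 of 4 arrays in the untreated channel.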

How the results depend on the processing

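The median ratio of the 8 macrophage genes stayed above 0 in every setting run, between 0.55 and 0.74 over the normalization, source, filter, dye, slide, pairing and probe settings and between 0.46 and 0.72 without 1 array. The slide setting (arrays 2, 3 and 4) is the same as leaving out array 1 and gave 0.67. The dye and pairing settings could not change the median, and without a filter the same probes were brightest. The series table repeats Agilent's processed signals, so both gave 0.74. No replicate block, ignoring which channels share an array, gave the same median of 0.61 and 494 probes at an unadjusted p under 0.05 in place of 1534. Ratios left as Cy5 over Cy3, chosen after seeing the data, gave a median of 0.31 and 0 genes above 0 on all arrays. With median centring, 1 gene was above 0 on all arrays, CD163, in place of 3. Median centring also moved the medians of all tested probes to 0.52, -0.52, 0.34 and -0.29 on arrays 1 to 4, and the macrophage median to 1.28, -0.51, 1.27 and 0.36, so that relative to all probes it stood at 0.61, beside 0.59 after loess. Genes above 0 on all arrays numbered 3 to 7 without 1 array, 7 of them without array 2. The count does not apply to the dye and pairing settings. CD14 ran from -0.029 without array 4 to 0.29 without array 2, and in the settings run for single genes no other gene had a mean below 0. Left as Cy5 over Cy3, a gene mean is its dye term, which was -0.24 for CD163 and -0.02 for AIF1. C1QC was not tested under the strict filter. Probes past an adjusted p of 0.05 were 0 in every setting for orexin B, with 177 at an unadjusted p under 0.05 after median centring and 2382 with dye as a term. For the dye term the count was 9217 after median centring and 0 to 22 without 1 array, 22 of them without array 4. The cause of these shifts was not tested. The number of arrays and the dim untreated signal of C1QC limit the precision.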
